A study of Mus musculus with 12 samples.

Results

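Dynactin is the large multi-subunit partner of cytoplasmic dynein 1, the motor that carries cargo along microtubules towards their minus ends. The complex is built on a short filament of the actin-related protein ARP1, made in mice from the gene pair Actr1a and Actr1b. A shoulder of DCTN1, DCTN2 and DCTN3 reaches from the filament to dynein and to the microtubule, the pointed end of the filament is closed by ACTR10, DCTN4, DCTN5 and DCTN6, and its barbed end is closed by the actin capping protein CapZ. Cargo adaptors such as the BICD proteins join dynein to dynactin and turn the motor on, and in T cells dynein takes part in moving the microtubule-organising centre to the contact with an antigen-presenting cell.

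The genes described here are 9 subunit genes of dynactin: ACTR1A, ACTR1B, DCTN1, DCTN2, DCTN3, ACTR10, DCTN4, DCTN5 and DCTN6. They were taken by name from a count table of 26485 gene rows and chosen by someone who knew earlier levels and differences measured in these same libraries. Which comparison drew attention to them is not recorded, so their values in all of them are given as a description. All 9 were in the table, and together they had 6827 reads over all libraries. A gene was tested where 3 or more libraries held 10 or more of its reads, which left 7465 genes, 8 of the 9 among them. DCTN6 reached 10 reads in only 2 libraries and was not tested.

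The libraries came from CD4+ T cells of C57BL/6 mice treated after an immunisation with alum, in one arm with 4EGI-1 and in the other with vehicle, by mouth for 7 days at 25 mg/kg of the compound a day. 4EGI-1 is a small molecule that keeps the cap-binding factor eIF4E from joining eIF4G. The cells were sorted for CD4 and CD45. Each arm was read as RNA of the heavy polysome fraction of a sucrose gradient, which holds transcripts carrying many ribosomes, and as total mRNA, called input. The 4 groups of 3 libraries are thus 4E heavy, OA heavy, 4E input and OA input. The labels do not spell out 4E and OA; here 4E was read as the 4EGI-1 arm and OA as the vehicle arm, both from immunised mice. Nothing says that replicates came from separate animals or that heavy and input libraries of 1 number came from the same cells, so p-values reflect the spread among these libraries alone, which may be technical.

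Gene reads per library numbered 691449 to 960567 in 4E heavy, 881639 to 1906657 in OA heavy, 1006422 to 1079178 in 4E input and 1052508 to 1895038 in OA input. Small noncoding RNA rows took 10.6% to 16.9% of the reads in 4E heavy, 3.14% to 12% in OA heavy, 75.1% to 78.3% in 4E input and 33.6% to 74.9% in OA input. OA replicate 1 stood apart, with the most gene reads of its group in both fractions and, in input, the lowest share of small noncoding RNA, and where leaving it out of both fractions moved a dynactin gene's difference between the arms by over 1.5 times, that value is given too. The dynactin genes together had 551 to 770 reads per library in 4E heavy, 610 to 1411 in OA heavy, 196 to 234 in 4E input and 247 to 875 in OA input. Levels are CPM, reads of a gene relative to the TMM-scaled library total; they are not divided by gene length and are compared only within a gene. Where a gene has 0 reads, its level may still be as high as 3 reads allow, between 0.781 and 6.82 CPM by library, for counting error only. Of the genes that define the sorted cells, PTPRC, which encodes CD45, had 8791 reads, the kinase gene LCK 5355 and the receptor gene CD3E 935, while CD4 itself had 100 reads and 0 in every 4E input library.

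Of the 8 dynactin genes tested, only ACTR1B had arms that stood apart in both fractions. It was higher in 4E, and 1.67% of all genes tested stood apart in the same way. ACTR1B and ACTR1A code for versions of one protein and are similar in sequence, so their sequences are shown first. Both code for 1131 bases over 11 exons. In the mouse build GRCm38, with GENCODE annotation, Actr1a lies on the minus strand at chr19:46376811-46395748 and Actr1b on the minus strand at chr1:36698114-36714422. The coding sequences differ at 241 positions, an identity of 78.7%. The stretch below covers coding bases 226 to 345 of each, 120 bases with 18 differences, 5′ to 3′ on the coding strand; capitals mark the bases at which the pair differs.
ACTR1A: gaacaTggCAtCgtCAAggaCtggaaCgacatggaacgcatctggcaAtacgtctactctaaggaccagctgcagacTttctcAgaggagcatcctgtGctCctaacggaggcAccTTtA
ACTR1B: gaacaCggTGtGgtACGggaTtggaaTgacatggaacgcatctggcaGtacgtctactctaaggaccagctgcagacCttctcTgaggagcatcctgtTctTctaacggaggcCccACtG
The capitals lie between shared runs, the longest of which, anywhere in the coding sequences, is 29 bases; no run of 30 or more bases is shared. A read of that length from the coding part therefore matches only 1 of the pair without mismatches. The count table uses human-style symbols, and no source used here gives the gene models behind it, so how its counting treated reads of the pair cannot be stated.

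ACTR1B, one of the genes for the ARP1 filament subunit, stood at about double the level in the 4E arm, in both fractions. In heavy polysomes it had 111, 87.7 and 126 CPM in 4E libraries, against 47.1, 63.9 and 50.9 CPM in OA libraries. In input it had 106, 107 and 115 CPM in 4E libraries, against 49.9, 57 and 58 CPM in OA libraries. The groups did not overlap in either fraction, and the lowest of all 4E libraries lay above the highest of all OA libraries. The mean was 108 ± 19.4 CPM in 4E heavy and 54 ± 8.82 CPM in OA heavy, and 109 ± 4.71 CPM in 4E input and 55 ± 4.4 CPM in OA input (SD, n = 3 each).

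The log2 change of ACTR1B, 4E minus OA, was 1 in heavy (SE 0.23, fold 2.01) and 1 in input (SE 0.25, fold 2.01). Neither passed edgeR's quasi-likelihood test after Benjamini-Hochberg adjustment over all genes tested, with an adjusted p of 0.422 in heavy and 0.333 in input. By p-value it ranked 5 of 7465 genes in heavy and 14 of 7465 in input. Without OA replicate 1 the log2 change was 0.88 in heavy (adjusted p = 0.294 by edgeR) and 0.92 in input (adjusted p = 0.22 by edgeR), and with small noncoding RNA rows removed it was 0.99 in heavy and 1 in input. With no scaling for composition it was 0.82 in heavy and 0.17 in input, where the median of all genes stood at -0.18 and -0.93; relative to that median it was 1.01 and 1.10.

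ACTR1A, the other ARP1 gene, showed no such separation of the arms. It had 48.6, 89.5 and 74.3 CPM in 4E heavy libraries, against 52.9, 63.4 and 60.6 CPM in OA heavy libraries. Its input levels were 52.2, 56.8 and 79.5 CPM in 4E libraries, against 51.5, 78.1 and 85.3 CPM in OA libraries. The groups overlapped in both fractions. The log2 change, 4E minus OA, was 0.27 in heavy (SE 0.27, adjusted p = 0.777 by edgeR) and -0.16 in input (SE 0.30, adjusted p = 0.874 by edgeR). Without OA replicate 1 these were 0.16 and -0.39. Without 4E heavy replicate 2, the library with the highest ACTR1A level, the heavy value was 0.05, and without 4E heavy replicate 1 it was 0.48. Over single left-out libraries the input value ran from -0.39 to -0.01.

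The reads of the pair can also be set against each other within a library, which needs no scaling between libraries. ACTR1B made up 69.5%, 49.5% and 62.9% of the pair's reads in the 4E heavy libraries, against 47.1%, 50.2% and 45.7% in the OA heavy libraries. In input it made up 67.1%, 65.3% and 59.1% in 4E libraries, against 49.2%, 42.2% and 40.5% in OA libraries. The exact 95% binomial intervals, which cover counting error only, ran from 53.1% to 76.1% in 4E input replicate 2 and from 31.4% to 53.5% in OA input replicate 2. The arms did not overlap in input. In heavy they did, since 4E heavy replicate 2, the library with the highest ACTR1A level of all, had a share below that of OA heavy replicate 2. The mean share was 60.6 ± 10.2% in 4E heavy and 47.7 ± 2.3% in OA heavy, and 63.8 ± 4.2% in 4E input and 44 ± 4.61% in OA input (SD, n = 3 each). The level of the pair together averaged 179 ± 20.7 CPM in 4E heavy and 113 ± 13.7 CPM in OA heavy, and 172 ± 19.3 CPM in 4E input and 127 ± 22.2 CPM in OA input (SD, n = 3 each).

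**Figure D1:**
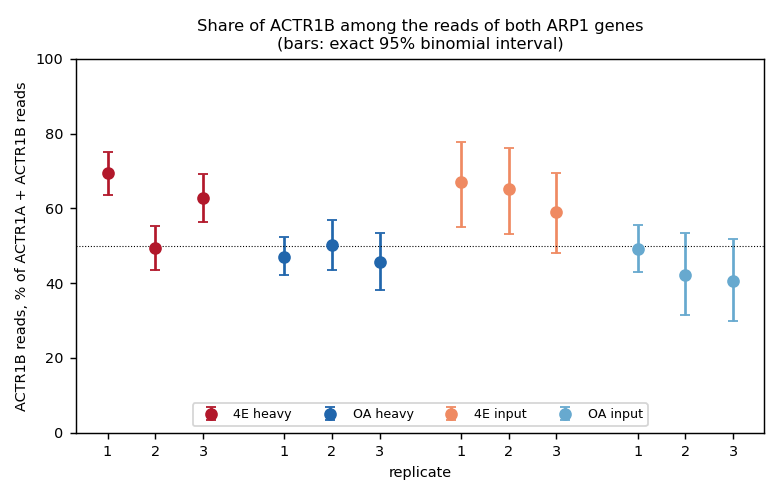
Share of ACTR1B among the reads of ACTR1A and ACTR1B, in percent, for each library of the 4 groups. Bars on the points are exact 95% binomial intervals. The 4E input libraries lie at 59.1% to 67.1% and the OA input libraries at 40.5% to 49.2%, while 4E heavy replicate 2, at 49.5%, lies among the OA heavy libraries.

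Of the marker lists for other cells, only the stromal one had a summed level that separated the arms in both fractions. No marker gene passed edgeR's test between the arms, where 0% of all genes tested did. The summed level of the 5 stromal and endothelial markers was 23 to 39.4 CPM in 4E heavy against 58.8 to 508 CPM in OA heavy, and 34.1 to 56.5 CPM in 4E input against 66.6 to 560 CPM in OA input, with no overlap between the arms in either fraction. Within it, 4 genes were tested, with 3 lower and 1 higher in 4E in each fraction. The log2 change, 4E minus OA, of COL3A1 was -4.64 in heavy (SE 0.88) and -5.25 in input (SE 1.20). That of COL1A1 was -3.35 in heavy (SE 0.73) and -2.28 in input (SE 0.76). COL3A1 averaged only 2.23 CPM in 4E heavy and 1.45 CPM in 4E input, against 56 CPM in OA heavy and 62.9 CPM in OA input. The size of its log2 changes thus rests on very few 4E reads and is uncertain. The endothelial marker PECAM1 averaged 6.33 CPM in 4E heavy and 5.62 CPM in OA heavy, and 5.19 CPM in 4E input and 3.92 CPM in OA input. Of the 7 myeloid markers in the table, 1 was at 0 throughout. The rest summed to 13.1 to 27.8 CPM in 4E heavy and 39.8 to 83.1 CPM in OA heavy, and to 18.2 to 48.6 CPM in 4E input and 29 to 58.6 CPM in OA input. The 3 tested were all lower in 4E in heavy, and 2 were lower and 1 higher in input. Among them, MPO had a log2 change of -4.13 in heavy (SE 0.79) and -3.33 in input (SE 1.05). MPO averaged only 1.61 CPM in 4E heavy and 1.45 CPM in 4E input, against 26.3 CPM in OA heavy and 14.3 CPM in OA input. These sizes also rest on very few 4E reads. Of 6 red cell markers, 3 were at 0 throughout; the rest summed to 16.2 to 95.8 CPM in 4E heavy and 48.2 to 529 CPM in OA heavy, and to 21.7 to 172 CPM in 4E input and 66.2 to 381 CPM in OA input. The 6 B cell markers summed to 72.2 to 253 CPM in 4E heavy and 58.6 to 203 CPM in OA heavy, and to 122 to 227 CPM in 4E input and 66.6 to 179 CPM in OA input. The 7 T cell markers summed to 826 to 1050 CPM in 4E heavy and 731 to 1170 CPM in OA heavy, and to 645 to 913 CPM in 4E input and 742 to 1160 CPM in OA input. The part of these cells in the ACTR1B difference was not tested, and in bulk RNA fewer cells of a type and less RNA per cell cannot be told apart.

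The shoulder genes had somewhat higher means in the 4E arm, except for DCTN3. DCTN1, the large subunit that binds microtubules and the dynein intermediate chain, had 157, 147 and 150 CPM in 4E heavy libraries, against 103, 139 and 134 CPM in OA heavy libraries. Its input levels were 141, 177 and 144 CPM in 4E libraries, against 87.2, 109 and 152 CPM in OA libraries. The arms did not overlap in heavy but did in input, through OA input replicate 3. The log2 change was 0.28 in heavy (SE 0.22, adjusted p = 0.714 by edgeR) and 0.43 in input (SE 0.24, adjusted p = 0.543 by edgeR). Without OA replicate 1 it was 0.13 in heavy and 0.23 in input, and with no scaling for composition it turned to -0.34 in input, which is 0.59 above the median of all genes. Without OA input replicate 3 the input value was 0.67.

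DCTN2, known as dynamitin, whose excess takes the complex apart, had 74.1, 87.7 and 69.9 CPM in 4E heavy libraries, against 51, 67.9 and 75.4 CPM in OA heavy libraries. In input it had 76.1, 86.4 and 66.2 CPM in 4E libraries, against 51.1, 60.2 and 44.4 CPM in OA libraries. Here the arms overlapped in heavy and stood apart in input. The log2 change was 0.26 in heavy (SE 0.24, adjusted p = 0.747 by edgeR) and 0.55 in input (SE 0.26, adjusted p = 0.474 by edgeR). Without OA replicate 1 it was 0.09 in heavy and 0.53 in input. With no scaling for composition the input value was -0.31, which is 0.62 above the median of all genes.

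DCTN3, the small shoulder subunit, had 25.5, 14.9 and 17.9 CPM in 4E heavy libraries, against 22.9, 16.8 and 33.5 CPM in OA heavy libraries. Input levels were 10.9, 20.5 and 15.5 CPM in 4E libraries, against 20.2, 19.5 and 30.7 CPM in OA libraries. The arms overlapped in both fractions, with log2 changes of -0.32 in heavy (SE 0.38, adjusted p = 0.819 by edgeR) and -0.56 in input (SE 0.46, adjusted p = 0.674 by edgeR). The heavy value rests on single libraries: it was -0.04 without OA heavy replicate 3 and -0.57 without 4E heavy replicate 1. The input value was -0.35 without OA input replicate 3. The shoulder genes together averaged 248 ± 10 CPM in 4E heavy and 214 ± 34.1 CPM in OA heavy, and 246 ± 33.2 CPM in 4E input and 191 ± 34.3 CPM in OA input (SD, n = 3 each).

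**Figure D2:**
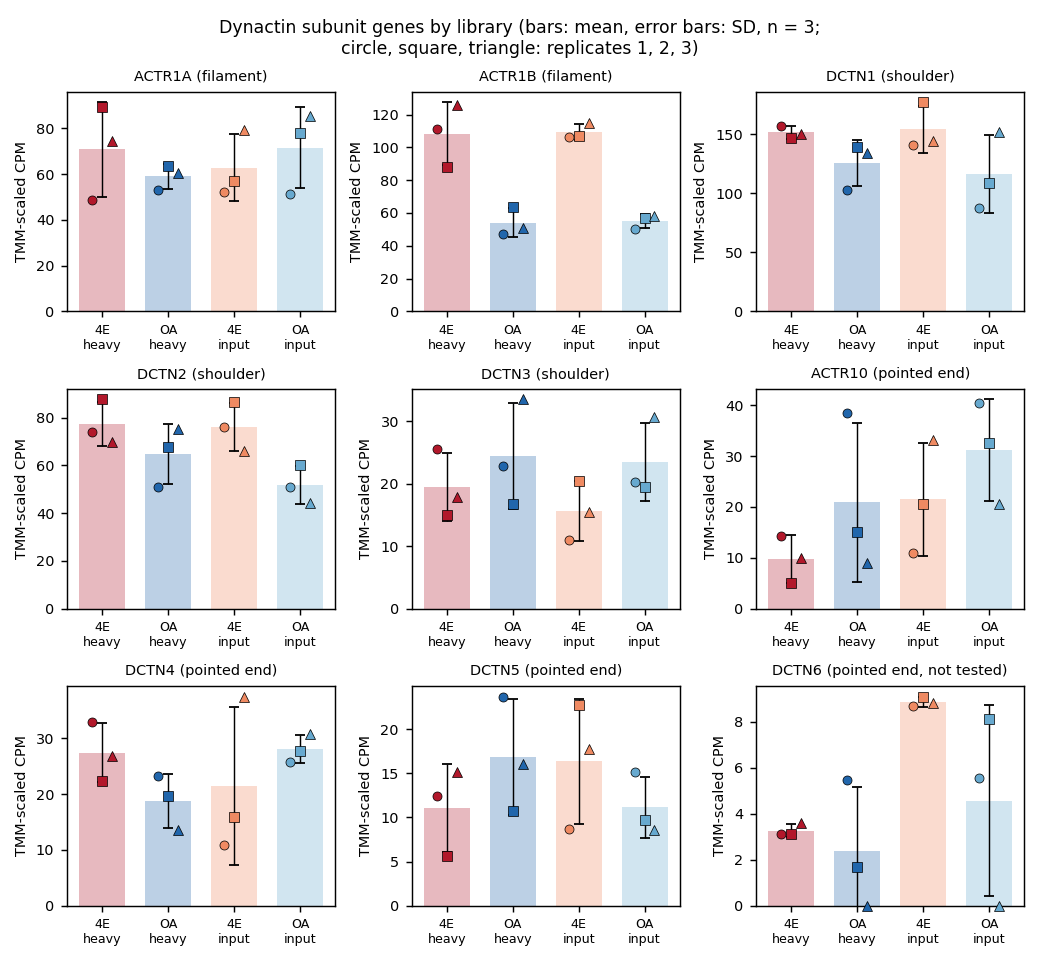
Level of each of the 9 dynactin genes in CPM after TMM scaling, 1 point per library and 1 panel per gene, with the 4 groups along the horizontal axis. The ACTR1B panel separates the 4E libraries, at 87.7 CPM and above, from the OA libraries, at 63.9 CPM and below; in the other panels at least 1 fraction has overlapping arms.

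Like DCTN3 of the shoulder, at 357 reads in all, the pointed-end genes had few reads, at 394 or fewer each, and they spread widely. ACTR10, the actin-related protein at that end, had 14.3, 4.97 and 9.85 CPM in 4E heavy libraries, against 38.5, 15.1 and 9.02 CPM in OA heavy libraries. In input it had 10.9, 20.5 and 33.1 CPM in 4E libraries, against 40.4, 32.5 and 20.5 CPM in OA libraries. The means were lower in the 4E arm in both fractions, and the arms overlapped in both. The log2 change was -1.15 in heavy (SE 0.53, adjusted p = 0.593 by edgeR) and -0.58 in input (SE 0.57, adjusted p = 0.734 by edgeR). The heavy value rests on OA heavy replicate 1: without that library it was -0.33 (adjusted p = 0.999 by edgeR). Without OA replicate 1 in both fractions it was -0.35 in heavy and -0.32 in input, and without 4E input replicate 3 the input value was -1.03.

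DCTN4 had 33, 22.4 and 26.9 CPM in 4E heavy libraries, against 23.2, 19.6 and 13.5 CPM in OA heavy libraries. In input it had 10.9, 15.9 and 37.5 CPM in 4E libraries, against 25.8, 27.7 and 30.7 CPM in OA libraries. The means pointed in opposite directions in the 2 fractions, with a log2 change of 0.53 in heavy (SE 0.38, adjusted p = 0.697 by edgeR) and -0.37 in input (SE 0.44, adjusted p = 0.78 by edgeR). The input value was -1.05 without 4E input replicate 3, the library with the highest DCTN4 level, and -0.05 without 4E input replicate 1. The heavy value was 0.35 without OA heavy replicate 3.

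DCTN5 had 12.4, 5.6 and 15.2 CPM in 4E heavy libraries, against 23.7, 10.7 and 16.1 CPM in OA heavy libraries. Input levels were 8.69, 22.7 and 17.7 CPM in 4E libraries, against 15.1, 9.76 and 8.53 CPM in OA libraries. The arms overlapped in both fractions, and the log2 change was -0.64 in heavy (SE 0.50, adjusted p = 0.712 by edgeR) and 0.47 in input (SE 0.57, adjusted p = 0.782 by edgeR). Without OA replicate 1 these were -0.31 and 0.82, and without 4E input replicate 2 the input value was 0.16. DCTN6, the partner of DCTN5 at the pointed end, had 5, 5 and 4 reads in 4E heavy libraries, against 21, 3 and 0 in OA heavy libraries, and 4, 4 and 4 in 4E input libraries, against 14, 5 and 0 in OA input libraries. At 69 reads in all, no difference in DCTN6 was detectable at this depth. The pointed-end genes together averaged 51.5 ± 13.9 CPM in 4E heavy and 58.9 ± 28 CPM in OA heavy, and 68.2 ± 29 CPM in 4E input and 74.9 ± 13.8 CPM in OA input (SD, n = 3 each).

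Across the complex, the differences between the arms were uneven. In heavy, 5 of the 8 genes tested had a higher mean and 3 a lower one in the 4E arm, with a median log2 change of 0.27 against 0 over all genes tested. In input, 4 were higher and 4 lower, with a median of 0.14 against -0.05. Both medians depend on OA replicate 1, without which they were 0.11 in heavy and -0.04 in input. None passed edgeR's test at an adjusted p under 0.05 in either fraction, where the share of all genes tested that passed was 0% as well. At an unadjusted p under 0.05, 2 of 8 stood out in heavy (ACTR1B and ACTR10), against 8.21% of all genes, and 2 of 8 in input (ACTR1B and DCTN2), against 10.5%. DESeq2 called 0 of the dynactin genes in both fractions, and 1 gene of all in heavy and 3 in input. Arms stood apart with 4E higher for 2 of 8 in heavy (ACTR1B and DCTN1), against 9% of all genes, and for 2 of 8 in input (ACTR1B and DCTN2), against 6.23%. ACTR1B alone of the 8 did so in both fractions, as did 125 of all genes tested, or 1.67%.

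**Figure D3:**
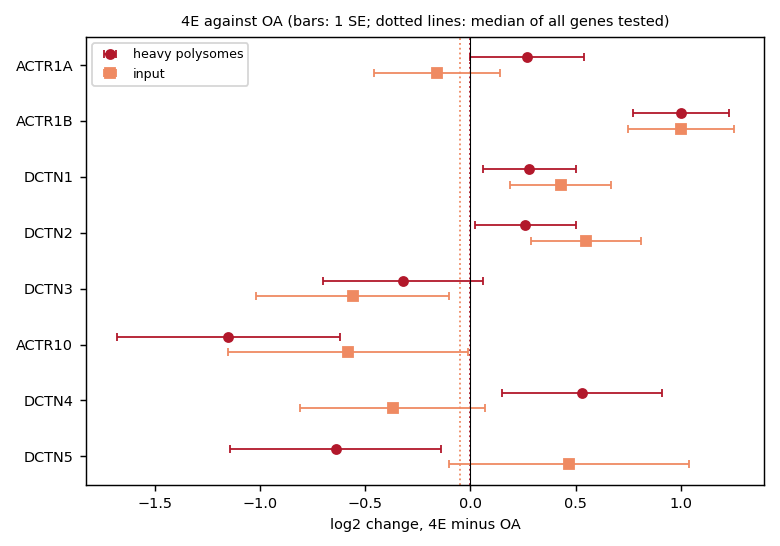
Log2 change, 4E minus OA, of the 8 dynactin genes tested, in heavy polysomes and in input, with bars of 1 standard error from the edgeR fit. ACTR1B lies at 1 in both fractions, ACTR10 lies below 0 in both, and DCTN4, DCTN5 and ACTR1A lie on opposite sides of 0 in the 2 fractions.

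Summed over all 9 genes, the level averaged 479 ± 15.2 CPM in 4E heavy and 386 ± 16.3 CPM in OA heavy, and 486 ± 52.2 CPM in 4E input and 393 ± 42.4 CPM in OA input (SD, n = 3 each). The heavy sums ran from 463 to 493 CPM in 4E and from 367 to 398 CPM in OA. The input sums ran from 426 to 517 CPM in 4E and from 347 to 430 CPM in OA, which overlap. With ACTR1B left out, the sum averaged 370 ± 4.47 CPM in 4E heavy and 332 ± 11 CPM in OA heavy, and 377 ± 49.8 CPM in 4E input and 338 ± 38.1 CPM in OA input (SD, n = 3 each). The heavy sums still stood apart, at 367 to 376 CPM in 4E and 320 to 342 CPM in OA. The input sums overlapped, at 319 to 409 CPM in 4E and 297 to 372 CPM in OA. These sums weight each gene by its reads, so DCTN1, with 2090 of the 6827 reads, counts most.

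**Figure D4:**
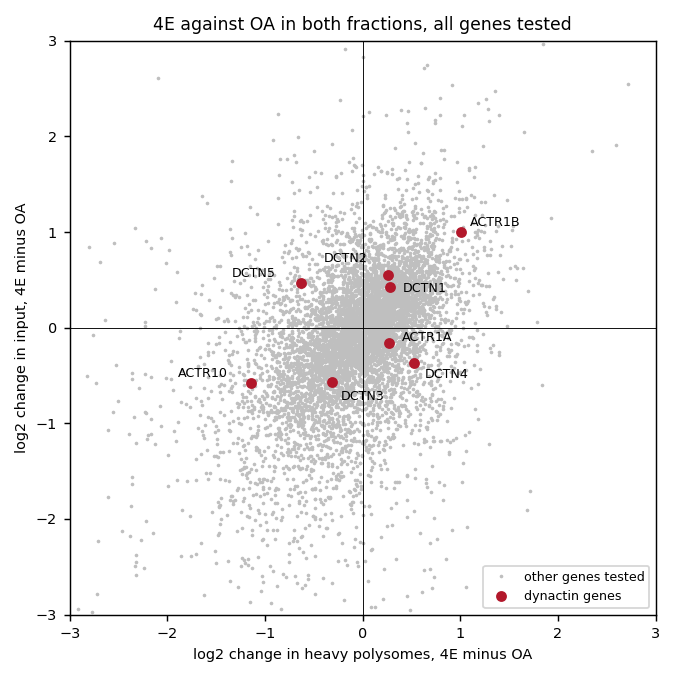
Log2 change, 4E minus OA, in heavy polysomes (horizontal axis) and in input (vertical axis) for the genes tested, with the 8 dynactin genes marked; 96 genes lie outside the plotted range of -3 to 3. ACTR1B lies at 1 on both axes, in the upper right, above 97.9% of all genes tested in heavy and 95.6% in input.

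Ordered by mean level over the 4 groups, ACTR1B ran 4E input, 4E heavy, OA input and OA heavy, and the only neighbours whose libraries did not overlap were 4E heavy and OA input. DCTN1 ran 4E input, 4E heavy, OA heavy and OA input, and its only such neighbours were 4E heavy and OA heavy. For ACTR1A, DCTN2, DCTN3, ACTR10, DCTN4 and DCTN5, every group overlapped with the next in order.

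Heavy polysome RNA was set against input within each arm to compare the ribosome-loaded pool with the total pool, relative to the other genes. The dynactin genes lay on either side of the median of all genes in both arms. In 4E, log2 changes, heavy minus input, ran from -1.14 for ACTR10 (SE 0.61, adjusted p = 0.911 by edgeR) to 0.35 for DCTN4 (SE 0.43), with 4 higher and 4 lower and a median of 0 against 0.04 over all genes. In OA they ran from -0.57 for ACTR10 (SE 0.50) to 0.53 for DCTN5 (SE 0.51), with 4 higher and 4 lower and a median of 0.03 against 0.01. In 4E 3.12% of all genes lay below ACTR10, and in OA 6.67% did. ACTR1B stood at -0.02 in 4E (SE 0.23) and -0.02 in OA (SE 0.24).

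None of the 8 passed edgeR's test at an adjusted p under 0.05 in either arm, against 0.938% of all genes in 4E and 0.683% in OA, and none did so by DESeq2. In OA, where heavy and input libraries of replicate 1 deviated together, a replicate block by source again gave 0 of the 8, against 1.21% of all genes. At an unadjusted p under 0.05 there were 0 of 8 in each arm, against 5.59% of all genes in 4E and 2.18% in OA. DCTN4 in OA was the only one whose fractions stood apart, with 23.2, 19.6 and 13.5 CPM in heavy against 25.8, 27.7 and 30.7 CPM in input (log2 change -0.54, SE 0.39, adjusted p = 1 by edgeR). Fractions stood apart with heavy lower for 5.79% of all genes in 4E and 3.36% in OA, and with heavy higher for 7.93% in 4E and 4.19% in OA. These values depend on the scaling. With none for composition, the median of all genes was 1.97 in 4E and 1.24 in OA. There 6 of 8 dynactin genes passed the test with heavy higher in each arm, as did 5978 of all 7465 genes in 4E and 3006 in OA. ACTR1B lay -0.05 and 0.02 from those medians. The ACTR10 value in OA was -1.40 without OA heavy replicate 1.

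**Figure D5:**
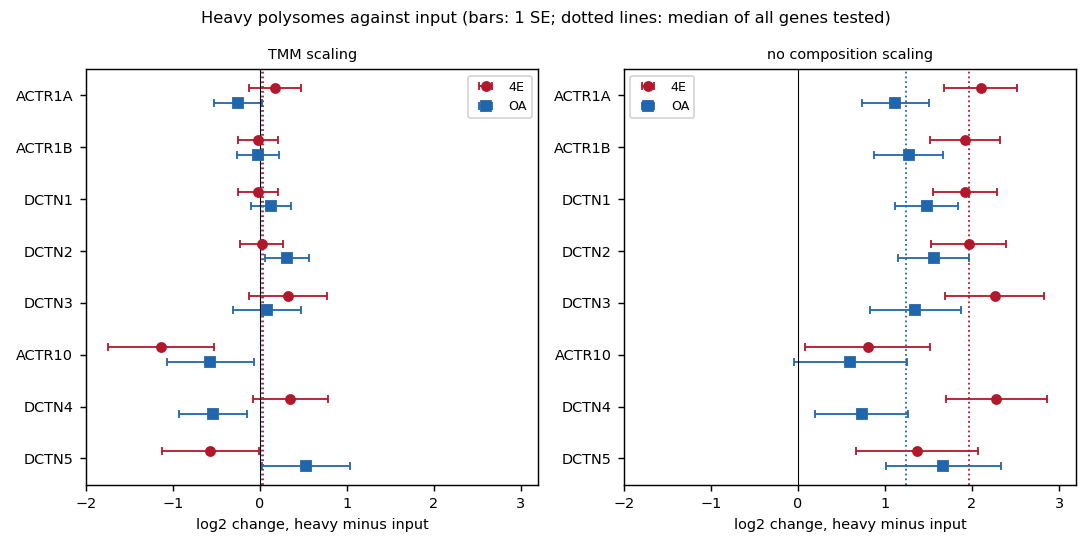
Log2 change, heavy minus input, of the 8 dynactin genes tested in the 4E arm and in the OA arm, with bars of 1 standard error from the edgeR fit. ACTR1B lies at -0.02 in both arms, and ACTR10 is the lowest in both, at -1.14 in 4E and -0.57 in OA.

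Whether the change from input to heavy differed between the arms was tested as an interaction, the 4E value minus the OA value. None of the 8 genes passed edgeR's test, with all adjusted p at 1, as did 0% of all genes; at an unadjusted p under 0.05 there were 0 of 8, against 2.13% of all genes, and DESeq2 called 0 genes. ACTR1B stood at 0 (SE 0.33). The extremes were 0.90 for DCTN4 (SE 0.58) and -1.11 for DCTN5 (SE 0.76), and the median was -0.08 against 0.05 over all genes. DCTN4 stood at 1.58 without 4E input replicate 3, and ACTR10, at -0.57 (SE 0.78), stood at 0.25 without OA heavy replicate 1.

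The partners of dynactin were read from lists of related genes, and no gene of any of these lists passed edgeR's test in the 5 comparisons. CapZ, which caps the barbed end of the ARP1 filament, had all 3 listed genes tested, with 1 higher and 2 lower in 4E in each fraction and a median log2 change of -0.15 in heavy and -0.42 in input. CAPZA2, an alpha subunit, averaged 61.4 ± 4.24 CPM in 4E input and 98 ± 28.4 CPM in OA input (SD, n = 3 each), a log2 change of -0.70 (SE 0.28, adjusted p = 0.399 by edgeR). Its heavy means were closer, at 74.5 ± 17.2 CPM in 4E and 82.6 ± 9.34 CPM in OA (SD, n = 3 each). CAPZB, the beta subunit, averaged 207 ± 12.8 CPM in 4E heavy and 181 ± 8.61 CPM in OA heavy (SD, n = 3 each), a log2 change of 0.19 (SE 0.19), and its log2 change in input was 0.25 (SE 0.20). CAPZA1, the other alpha subunit, had one of -0.33 in heavy (SE 0.39).

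Of 11 cytoplasmic dynein 1 genes, 8 were tested, with 4 higher and 4 lower in 4E in heavy (median -0.08) and 6 higher and 2 lower in input (median 0.12). DYNC1H1, the motor-bearing heavy chain, averaged 1060 ± 131 CPM in 4E heavy and 883 ± 155 CPM in OA heavy (SD, n = 3 each), a log2 change of 0.26 (SE 0.20, adjusted p = 0.709 by edgeR). DYNC1LI2, a light intermediate chain that binds cargo adaptors, averaged 46.7 ± 8.79 CPM in 4E input and 27 ± 5.72 CPM in OA input (SD, n = 3 each), a log2 change of 0.76 (SE 0.36, adjusted p = 0.471 by edgeR). Its heavy means were closer, at 42.5 ± 16.2 CPM in 4E and 38.6 ± 7.31 CPM in OA (SD, n = 3 each). DYNLRB1, of the roadblock light chains, stood at -1.37 in input (SE 0.96) on few reads. DYNLL1, a light chain of another family, averaged 5.11 ± 1.27 CPM in 4E heavy and 13.9 ± 4.79 CPM in OA heavy (SD, n = 3 each), a log2 change of -1.44 (SE 0.56, adjusted p = 0.569 by edgeR). In input its means stood the other way, at 11.8 ± 4.57 CPM in 4E and 8.35 ± 4.41 CPM in OA (SD, n = 3 each). DYNLL1 had 181 reads over all libraries.

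Of 20 dynein regulators and cargo adaptors, all in the table, 15 were tested, with 13 higher and 2 lower in 4E in heavy (median 0.39) and 10 higher and 5 lower in input (median 0.19). CCDC64, also called BICDL1, an adaptor that joins dynein and dynactin to vesicles, averaged 306 ± 28.8 CPM in 4E heavy and 164 ± 67.6 CPM in OA heavy (SD, n = 3 each), a log2 change of 0.91 (SE 0.34, adjusted p = 0.569 by edgeR). In input it averaged 303 ± 54.9 CPM in 4E and 173 ± 84.8 CPM in OA (SD, n = 3 each), a log2 change of 0.84 (SE 0.35, adjusted p = 0.42 by edgeR). BICD2, a related adaptor, averaged 142 ± 22.5 CPM in 4E heavy and 92.3 ± 26.2 CPM in OA heavy (SD, n = 3 each), a log2 change of 0.63 (SE 0.32, adjusted p = 0.616 by edgeR). In input BICD2 averaged 181 CPM in 4E and 138 CPM in OA. PAFAH1B1, which encodes the dynein regulator LIS1, stood the other way in both fractions. In input it averaged 115 ± 31.3 CPM in 4E and 179 ± 55.5 CPM in OA (SD, n = 3 each), a log2 change of -0.65 (SE 0.30, adjusted p = 0.463 by edgeR). In heavy it averaged 106 ± 14 CPM in 4E and 144 ± 47.1 CPM in OA (SD, n = 3 each).

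Of 15 transport kinesin genes, whose motors run mostly the opposite way on microtubules, 11 were tested, with 9 higher and 2 lower in 4E in heavy (median 0.28) and 7 higher and 4 lower in input (median 0.24). KIF13B, a plus-end motor, had a log2 change of 0.60 in heavy (SE 0.26, adjusted p = 0.574 by edgeR) and KLC4, a kinesin light chain, one of 0.83 (SE 0.38, adjusted p = 0.593 by edgeR). In input KIF13B averaged 104 CPM in 4E and 100 CPM in OA, and KLC4 18.4 CPM in 4E and 18.9 CPM in OA. KIF21B stood at 0.50 in input (SE 0.23, adjusted p = 0.468 by edgeR) and the light chain KLC2 at 0.92 (SE 0.44, adjusted p = 0.471 by edgeR). In heavy KIF21B averaged 843 CPM in 4E and 605 CPM in OA, and KLC2 25.1 CPM in 4E and 14.6 CPM in OA. All 9 plus-end protein genes were tested, with 5 higher and 4 lower in each fraction and medians of 0.03 in heavy and 0.10 in input. CLIP1, a plus-end protein that DCTN1 binds, had a log2 change of 0.63 in heavy (SE 0.25, adjusted p = 0.569 by edgeR) and 0.54 in input (SE 0.25, adjusted p = 0.474 by edgeR). MAPRE1, the end-binding protein to which CLIP1 and DCTN1 attach, stood at 0.56 in heavy (SE 0.34), and CLIP2 at 0.66 in input (SE 0.38). In the other fraction MAPRE1 averaged 339 CPM in 4E input and 293 CPM in OA input, and CLIP2 23.7 CPM in 4E heavy and 24.5 CPM in OA heavy.

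The genes whose pattern over the 12 libraries was closest to the mean of the 8 dynactin genes were RASGRP1, DHX40, LARP1, G3BP2 and NFKBIA. Likeness was the root-mean-square difference of log2 CPM profiles, each centred on its own mean, and it was 0.13 for RASGRP1, DHX40 and LARP1, 0.14 for G3BP2 and 0.15 for NFKBIA, against a median of 0.55 over all genes tested. The dynactin genes, which themselves make up this mean, lay from 0.30 for DCTN1 to 0.75 for ACTR10, with ACTR1B at 0.49. Only ACTR10 lay above the median of 0.55. The 5 genes named above were picked as the closest of all, so their smaller values follow from the choice. The mean profile is nearly flat: RASGRP1 averaged 167 CPM in 4E heavy, 147 CPM in OA heavy, 168 CPM in 4E input and 154 CPM in OA input.

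In the authors' deposited table of OAE over OA, all 9 dynactin genes carry the class none. In the authors' deposited table ACTR1B has a log2 fold change of 0.98 in the translatome (p = 0.0045, adjusted p = 0.304) and 0.94 in the transcriptome (p = 0.00548, adjusted p = 0.441). DCTN6 is listed in the authors' deposited table at 1.22 in the translatome and 1.45 in the transcriptome, with p-values of 0.256 and 0.183.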

How the data were processed

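The authors deposited whole-number read counts per gene symbol for 12 libraries in a table whose name calls them normalised; as the values sum to different totals and include unassigned reads, they were handled as raw counts. The submitters' processing notes name Bowtie and mm9 without saying what each was used for, and neither the counting tool nor its annotation is given in the sources used here. Reads in no gene or in several, 16.4% to 31.4% per library, were left out. A further deposited table holds the authors' own log2 fold changes with raw and adjusted p-values, which are quoted only. Its arm named OAE was taken as 4E.

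The dynactin genes and all lists were chosen with earlier results of these data known. One edgeR 4.0.16 fit in R 4.3.3 (TMM, quasi-likelihood, 4 group means, all 12 libraries) gave 5 contrasts over 7465 genes, with Benjamini-Hochberg adjustment and a threshold of 0.05; standard errors came from the log2 change and the F statistic. The procedure was tested on simulated counts with known changes put into 4E heavy. Of 104 genes changed by a log2 of 1 in size, 28 were recovered, so most changes of that size were missed. Of 96 genes changed by a log2 of 2, 84 were recovered, and 7 of 7265 unchanged genes were called. Named partners are those with an adjusted p under 0.05 or, as none had one, 2 per list and contrast with the smallest p; for CapZ, dynein, adaptors, kinesins and plus-end proteins they are given for 4E minus OA, and RN7SL1 and HBB only within summed levels. Sequences and coordinates came from GENCODE M21 on GRCm38. Alternatives were RLE, upper-quartile and no composition scaling, DESeq2 1.42.0, other count filters, removal of small noncoding RNA rows, replicate blocks and left-out libraries. The labels do not say that a replicate number marks shared cells. Deviations from the group mean of same-numbered heavy and input libraries correlated at 0.669, 0.138 and 0.312 in OA, and at 0.1, 0.0162 and 0.0475 in 4E. In OA, heavy replicate 2 with input replicate 3 gave 0.163, and heavy replicate 3 with input replicate 2 gave 0.227. In 4E, different-numbered values ran from -0.0721 to 0.0276, below the same-numbered values of replicates 1 and 3 but not that of replicate 2. The strongest shared deviation of both fractions was that of OA replicate 1. The main fit held no pairing, and a replicate block was used only as an alternative. No table columns (0) belonged to other samples.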

Additional observations from a re-analysis of the deposited data

How the results depend on the processing

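Under 21 alternatives for 4E minus OA, and 22 for the other comparisons, no dynactin gene passed edgeR's or DESeq2's test, except as follows; a filter of 50 counts left ACTR10 and DCTN5 untested. With no composition scaling, 6 dynactin genes passed, heavy minus input, in each arm, with 6035 of all genes in 4E and 3054 in OA; ACTR1B and DCTN1 turned to 1.92 in 4E, and ACTR1A to 1.12 and ACTR1B to 1.27 in OA, since the median of all genes moved with them. That setting called 1 of all genes, 4E minus OA, in heavy and 1 in input. A replicate block by number called 1 dynactin gene, ACTR1B, in heavy (adjusted p = 0.0365 by edgeR) and 1 in input (adjusted p = 0.0452 by edgeR), with 27 and 71 of all genes. Between the arms, same-numbered deviations correlated at 0.279, 0.0152 and 0.147 in heavy and at 0.109, 0.0593 and 0.0425 in input. Different-numbered ones ran from -0.22 to 0.112 in heavy and from -0.0808 to 0.0196 in input. In input every same-numbered value thus lay above every different-numbered one, while in heavy they overlapped. The labels do not state pairs between the arms, so the block by number stayed an alternative. A replicate block by source (heavy and input of 1 arm and number) called 10 genes for the interaction, 109 for heavy minus input in 4E and 90 in OA, and no dynactin gene.

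For 4E minus OA in heavy and input, all genes called numbered 1 and 3 by DESeq2, 50 and 113 with no count filter, and 8 and 17 without OA replicate 1; with no filter the interaction had 4 and heavy minus input in OA 80. For heavy minus input in 4E and OA, a filter of 50 counts left 43 and 32, and removing small noncoding RNA left 8 and 4. Leaving out 1 library at a time gave 0 dynactin genes called throughout, and 0 to 4 of all genes in heavy, 0 to 14 in input, 0 for the interaction, 47 to 78 for heavy minus input in 4E and 35 to 69 in OA. Over all alternatives, ACTR1B ran from 0.82 to 1.13 in heavy (adjusted p 0.0365 to 0.999) and from 0.17 to 1.05 in input (adjusted p 0.0452 to 0.749). The input libraries, with 196 to 234 dynactin reads each in 4E, limit what can be seen of the pointed-end genes and of DCTN3.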
